A study of Mus musculus with 22 samples.

Results

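The 9 genes described here make and use nicotinamide adenine dinucleotide (NAD) in the heart: Nmrk1, Nmrk2, Nampt, Nmnat1, Nmnat3, Sirt1, Sirt3, Sirt5 and Parp1. They were taken by name from the 30735 Ensembl genes of the deposited tables, and all 9 were found in both tables. Transcripts were measured in 22 libraries of left ventricular tissue from FVB mice aged 3 to 5 months. Among them were 3 VCP TG 2 weeks TAC, 4 WT 2 weeks TAC, 4 VCP TG sham and 4 WT sham libraries in 1 table, and 3 VCP TG 5 weeks TAC and 4 WT 5 weeks TAC libraries in another. VCP TG mice carried a transgene for valosin-containing protein, an ATPase that pulls ubiquitinated proteins out of complexes and membranes. WT mice were wild type. TAC is transverse aortic constriction, a narrowing of the aorta that loads the left ventricle with pressure, and sham mice had a control operation. Which promoter drove the transgene, and whether libraries came from separate animals, is not stated, so the p-values below speak only of the spread among libraries. The study looks at VCP in the enlargement and failure of the loaded heart.

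NAD carries electrons from fuels to the respiratory chain and is also consumed as a substrate, so cells rebuild it all the time. Heart muscle rebuilds most of it by salvage: NAMPT joins nicotinamide to a phosphoribosyl group, the riboside kinases NMRK1 and NMRK2 phosphorylate nicotinamide riboside, and both routes meet at nicotinamide mononucleotide, which NMNAT1 in the nucleus and NMNAT3 in mitochondria turn into NAD. The sirtuins SIRT1 (nuclear), SIRT3 and SIRT5 (mitochondrial) and the DNA damage sensor PARP1 split NAD and release nicotinamide, which returns to NAMPT. In mice Nmrk2 is the riboside kinase of striated muscle, and in failing mouse hearts it has been described as induced while Nampt falls.

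The upstream sequences of the riboside kinase genes are shown because this pair serves the same step while Nmrk2 transcripts outnumbered those of Nmrk1 in every library. RefSeq bases (GRCm38.p6) directly upstream of the GENCODE M21 gene start and outside annotated exons are given 5′ to 3′ on the gene's own strand, with any match to a searched motif in capitals.
Nmrk2, chr10:81202052-81202201, minus strand: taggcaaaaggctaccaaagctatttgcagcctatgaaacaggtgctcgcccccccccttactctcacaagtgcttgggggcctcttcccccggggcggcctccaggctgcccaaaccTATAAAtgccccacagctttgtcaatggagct
Nmrk1, chr19:18631824-18631949, plus strand: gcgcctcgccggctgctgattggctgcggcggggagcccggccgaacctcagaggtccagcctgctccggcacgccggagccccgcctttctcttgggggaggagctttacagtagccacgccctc
The capitals in Nmrk2 mark a TATA motif. The stretch of Nmrk1 holds 12 CpG pairs in 126 bases and that of Nmrk2 3 CpG pairs in 150 bases. The Nmrk1 stretch fills the gap to Ostf1, a neighbouring gene whose start lies 127 bases away on the other strand. Within 250 bases upstream of the RefSeq starts, 4 motifs were searched on both strands: TATAAA, the E-box CACGTG, the motif AAGGTCA of the estrogen-related receptors, and the M-CAT element CATTCCT. They occur in 12.4%, 6.02%, 4.08% and 4.51% of all 32851 windows of that length. Nmrk2 held 1 TATAAA, Sirt1 held 2 E-boxes, Parp1 held 1 E-box and Sirt5 held 1 AAGGTCA, with no overlap between matches, and the windows of the other 5 genes held none of the 4 motifs.

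Every one of the 9 transcripts was detected in every library, between 1.22 and 44.5 TPM, a unit of transcript level scaled to transcript length and to a common total per library. In the median over all 22 libraries the order was Nampt at 26.9 TPM, Nmrk2 at 17.5, Parp1 at 12.5, Sirt3 at 11.5, Nmnat1 at 11.3, Sirt1 at 7.68, Sirt5 at 6.43, Nmrk1 at 3.53 and Nmnat3 at 2.99 TPM. Nmnat1 exceeded Sirt1, and Sirt5 exceeded Nmrk1, in 21 of 22 libraries, whereas Nampt exceeded Nmrk2 in only 15, Parp1 exceeded Sirt3 in 14, Sirt3 exceeded Nmnat1 in 15 and Nmrk1 exceeded Nmnat3 in 14. Nampt lay above 92.4% of nuclear protein-coding genes and Nmnat3 above 57.5%. Transcripts of the nuclear Nmnat1 outnumbered those of the mitochondrial Nmnat3 in all 22 libraries, and Nmrk2 outnumbered Nmrk1 in all 22, by a ratio of 2.55 to 10.7.

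**Figure D1:**
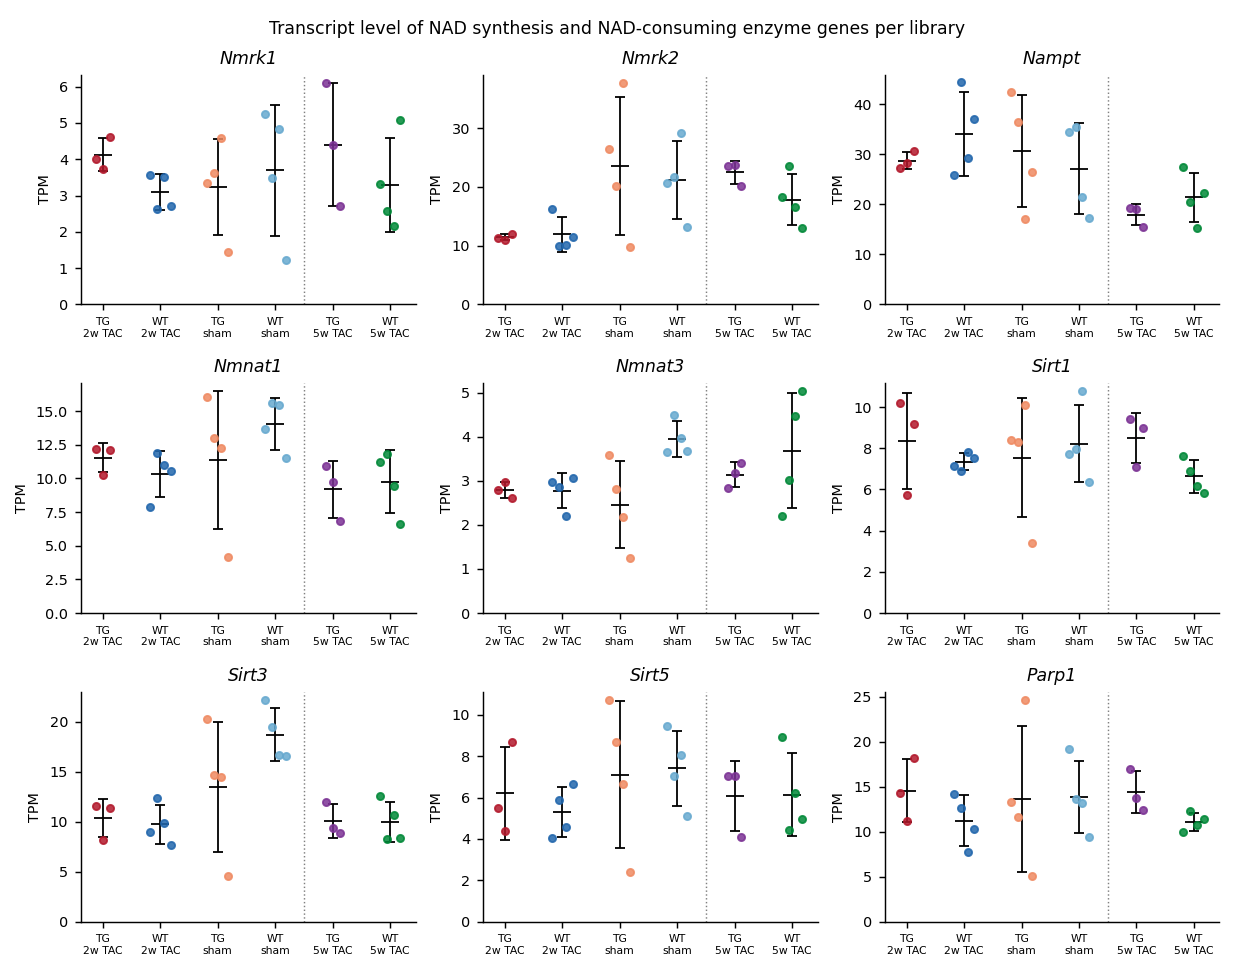
TPM of each of the 9 genes (vertical axes) in each library (points), by group (horizontal axes), with bars for the mean ± SD. TG is VCP TG, 2w and 5w are weeks, and the dotted line parts the tables of 2 and 5 weeks. Sirt3 in WT 2 weeks TAC (7.70 to 12.3 TPM) lies wholly below WT sham (16.5 to 22.1 TPM), and VCP TG sham has the widest spread for most genes.

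Libraries differed in ways that their groups explain only in part. Between 27.9% and 72.9% of TPM fell on the 13 protein-coding genes of the mitochondrial genome, the extremes being VCP TG sham replicates 3 and 4. The sham groups overlapped in this share, but the loaded groups did not. It was 40.2% to 51.6% in VCP TG 2 weeks TAC and 55.5% to 60.9% in WT 2 weeks TAC. At 5 weeks it was 47.6% to 50.8% in VCP TG 5 weeks TAC and 53.0% to 55.6% in WT 5 weeks TAC. The median SD of log2 values was 0.60 in VCP TG sham against 0.18 to 0.31 in the other 5 groups. The atrial myosin light chain Myl7 stood at 394 to 2269 TPM in 4 libraries (VCP TG sham replicates 3 and 4, VCP TG 2 weeks TAC replicate 2 and WT 2 weeks TAC replicate 1) and at 0.67 to 154 TPM in the other 18. Libraries were split by rank of Vcp rescaled to nuclear protein-coding genes, which was 259 to 512 in the upper 11 and 114 to 215 in the lower 11. By this split 5 libraries lay on the side of the other genotype: those labelled VCP TG sham replicate 1, VCP TG 5 weeks TAC replicate 3, WT 2 weeks TAC replicate 1 and WT 5 weeks TAC replicates 2 and 3. The genotypes have unequal numbers of libraries, so an equal split must set at least 1 against its label. VCP TG sham replicate 1, at 215, was still above all 4 WT sham libraries (162 to 204). Directions between VCP TG and WT below follow the labels. With these 5 libraries left out, the calls among the 9 genes were as in the full set in every comparison. Only WT 2 weeks TAC against WT sham had a call to lose, and there only WT 2 weeks TAC replicate 1 was left out.

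The response of WT hearts to pressure load was read from WT 2 weeks TAC against WT sham. Sirt3, the main deacetylase of mitochondrial enzymes, fell, and was the 1 gene of the 9 to pass the test. Its levels were 8.99, 12.3, 9.86 and 7.70 TPM in WT 2 weeks TAC replicates 1 to 4, against 22.1, 19.5, 16.7 and 16.5 TPM in WT sham replicates 1 to 4. No loaded heart reached the lowest sham value. The means were 9.73 ± 1.96 TPM in WT 2 weeks TAC and 18.7 ± 2.66 TPM in WT sham (SD, n = 4 each), and the log2 fold change on the TPM + 1 scale was -0.89 ± 0.17 (standard error; 95% confidence interval -1.27 to -0.50; limma adjusted p = 0.0213). Of 13709 genes tested 7.03% passed, 6.31% lower and 0.722% higher, so 1 of 9 called is close to the background. After quantile normalization 2.36% of genes were called higher and 2.27% lower, and Sirt3 was at -0.68 (adjusted p = 0.0493).

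None of the 5 synthesis genes passed in this comparison, and 4 of them had values below 0. Nmrk2 stood at 16.3, 9.95, 10.2 and 11.4 TPM in WT 2 weeks TAC, against 20.7, 21.7, 29.2 and 13.1 TPM in WT sham. The groups overlapped through WT 2 weeks TAC replicate 1 and WT sham replicate 4, and the log2 fold change of -0.75 ± 0.24 did not pass (limma adjusted p = 0.0755). Nmnat3 stood at 2.98, 2.87, 2.20 and 3.06 TPM in WT 2 weeks TAC, against 3.65, 4.50, 3.97 and 3.67 TPM in WT sham, without overlap (-0.39 ± 0.16, limma adjusted p = 0.136). Nmnat1 stood at 7.86, 11.9, 11.0 and 10.5 TPM in WT 2 weeks TAC, against 13.7, 15.6, 15.5 and 11.5 TPM in WT sham, overlapping in 1 library of each group (-0.42 ± 0.17, adjusted p = 0.150). Of the 9 genes 2 had all TAC libraries below all sham libraries, Sirt3 and Nmnat3, where 15.3% of all genes tested did. Nampt was the only one of the 9 with a positive value. It held 25.8, 44.5, 29.2 and 37.0 TPM in WT 2 weeks TAC, against 34.4, 35.4, 21.4 and 17.3 TPM in WT sham, with wide overlap (0.35 ± 0.25, adjusted p = 0.414).

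Among the other NAD users Sirt5, which removes succinyl, malonyl and glutaryl groups, stood at 4.06 to 6.67 TPM in WT 2 weeks TAC and 5.13 to 9.47 TPM in WT sham (-0.41 ± 0.21, adjusted p = 0.234). Parp1 stood at 7.68 to 14.2 TPM in WT 2 weeks TAC and 9.43 to 19.2 TPM in WT sham (-0.27 ± 0.23, adjusted p = 0.491). Sirt1 and Nmrk1 had the smallest values, -0.12 ± 0.17 and -0.10 ± 0.29. In all, 8 of 9 values were below 0, where 67.9% of all genes were, and the median was -0.39 over the 9 genes and -0.16 over all genes tested. After quantile normalization 6 of 9 were below 0, as were 50.6% of all genes.

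The Sirt3 call did not hold everywhere. It was lost without WT sham replicate 3 (limma adjusted p = 0.0593), without WT 2 weeks TAC replicate 3 (0.0758) or replicate 4 (0.0629), with no filter on low values (0.0591), and when all 4 groups of the table shared 1 estimate of spread (0.355), a fit that called 0 of 15540 genes. Without WT 2 weeks TAC replicate 1, whose Vcp and Myl7 stand out, Sirt3 was at -0.86 (adjusted p = 0.0461) and 3.14% of genes were called. Nmrk2 passed the threshold without WT sham replicate 4 (-0.95, limma adjusted p = 0.0207), on values rescaled to nuclear protein-coding genes (-0.76, adjusted p = 0.0454, with 12.6% of genes called) and with libraries weighted by quality (-0.96, adjusted p = 0.0119, with 17.2% called).

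Markers of several cell types differed in the same comparison, some lower and some higher. Summed levels of 6 ventricular myocyte markers were 14793 to 18960 TPM in WT 2 weeks TAC and 19127 to 25171 TPM in WT sham, with all 6 lower in the mean log2 value and the myosin Myh6 called lower (-0.72, limma adjusted p = 0.0325). Summed levels of 5 endothelial markers were 130 to 154 TPM in WT 2 weeks TAC and 181 to 232 TPM in WT sham, with Esam (-1.22) and Tie1 (-0.73) called lower. In the other direction, 5 macrophage markers summed to 29.3 to 64.7 TPM in WT 2 weeks TAC and 27.7 to 38.2 TPM in WT sham, with Adgre1 at 0.69 ± 0.24 (limma adjusted p = 0.0936) and Cd68 at 0.58 ± 0.23 (0.146). Summed levels of 5 red cell markers were 64.1 to 140 TPM in WT 2 weeks TAC and 23.2 to 104 TPM in WT sham, led by Hbb-bt at 1.29 ± 0.55 (0.175) and Hbb-bs at 1.14 ± 0.56 (0.235). Fibroblast sums were 292 to 699 TPM in WT 2 weeks TAC and 268 to 456 TPM in WT sham, and atrial myocyte sums were 19.1 to 4421 TPM in WT 2 weeks TAC and 13.8 to 106 TPM in WT sham. Values below 0 were held by 1 of 5 macrophage, 1 of 5 red cell and 1 of 5 fibroblast markers, and by 0 of 4 atrial markers tested. The summed levels of these lists overlapped between the groups. None of the macrophage, red cell, fibroblast or atrial markers passed, and no marker of these lists was at 0 in a group. The mean level of olfactory and vomeronasal receptor genes, a gauge of unspecific signal, was 0.107 to 0.200 TPM in WT 2 weeks TAC and 0.0450 to 0.0729 TPM in WT sham. The part of these shifts in the Sirt3 result was not tested, and in bulk tissue fewer cells of a type and less RNA per cell cannot be told apart.

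**Figure D2:**
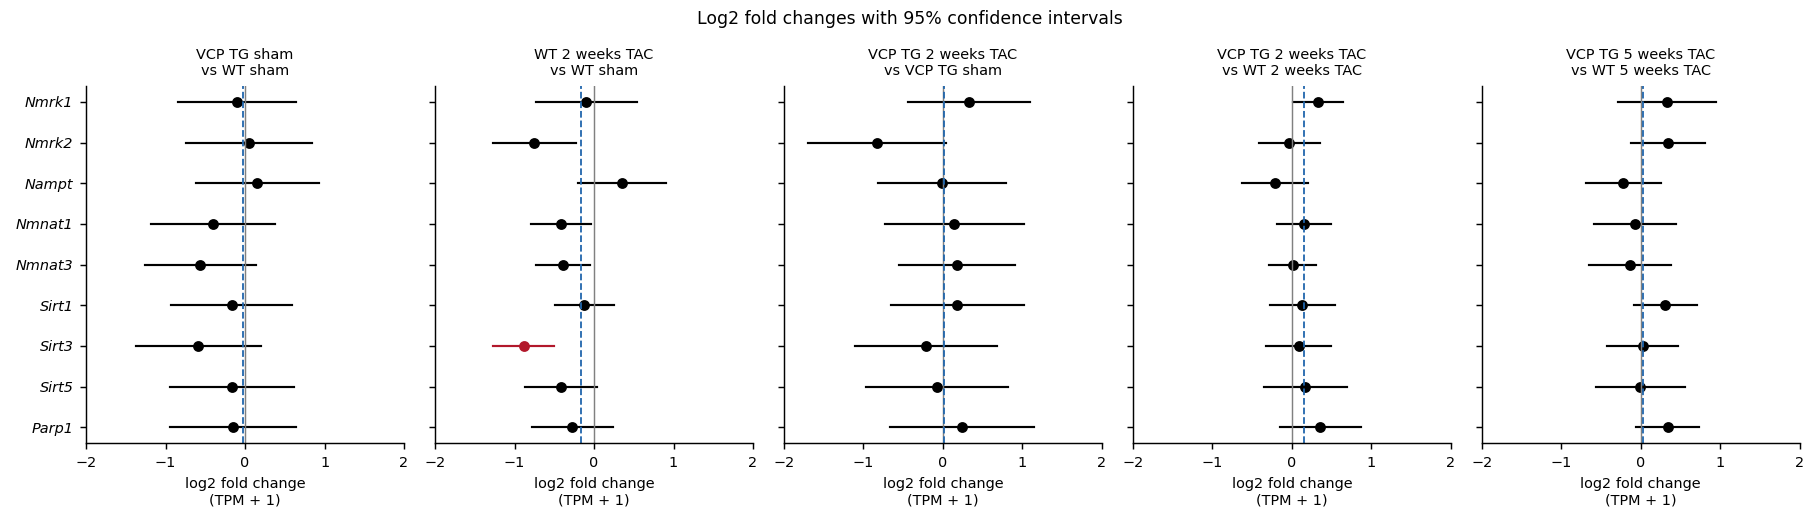
Log2 fold changes on the TPM + 1 scale (points) of the 9 genes with 95% confidence intervals (lines) in 5 comparisons. Red marks a gene past the limma threshold, the dashed line is the median of all genes tested, and the grey line is 0. Sirt3 in WT 2 weeks TAC against WT sham (-0.89) is the only red point, and intervals are widest where VCP TG sham takes part.

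The same load was asked in VCP TG 2 weeks TAC against VCP TG sham. None of the 9 genes passed by limma, where 0.364% of 14554 genes did, 51 higher and 2 lower, and no member had an unadjusted p under 0.05, the smallest being 0.0607 for Nmrk2. Nmrk2 held 11.4, 11.0 and 12.1 TPM in VCP TG 2 weeks TAC, against 26.5, 20.2, 37.7 and 9.72 TPM in VCP TG sham. The 3 loaded hearts lay close together and below 3 of the 4 sham libraries, but above VCP TG sham replicate 4, in which 72.9% of TPM was mitochondrial. The log2 fold change was -0.83 ± 0.42 (95% confidence interval -1.70 to 0.04, limma adjusted p = 0.945). It passed with libraries weighted by quality (-0.97, adjusted p = 0.0113), where 6.72% of genes were called, and without the libraries rich in atrial transcripts (-0.93, adjusted p = 0.0420), a fit of 2 libraries each in which 3.85% of genes passed. Rescaled to nuclear protein-coding genes, Nmrk2 was 21.8, 28.7 and 28.4 in VCP TG 2 weeks TAC, against 63.9, 55.6, 86.1 and 41.3 in VCP TG sham. Every loaded library was then below every sham library, but Nmrk2 did not pass on this scale. There 74.9% of all genes had values below 0, and the share with such an order was not computed.

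Sirt3 in the VCP TG hearts stood at 11.6, 8.13 and 11.4 TPM in VCP TG 2 weeks TAC, against 20.2, 14.6, 14.5 and 4.61 TPM in VCP TG sham. The loaded hearts were again below 3 of 4 sham libraries and above replicate 4 (-0.21 ± 0.43, 95% confidence interval -1.11 to 0.68, adjusted p = 1.00). The remaining 7 genes had values between -0.08 and 0.33, but on rescaled values 8 of the 9 were below 0, as were 74.9% of all genes. Nampt, at 28.7 ± 1.75 TPM in VCP TG 2 weeks TAC (n = 3) and 30.6 ± 11.2 TPM in VCP TG sham (n = 4), differed by -0.01 ± 0.39.

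Whether load acted differently in the genotypes was asked with the interaction of genotype and load in the 4 groups of 2 weeks. None of the 9 genes passed, where 0.00644% of 15540 genes, a single gene, did. No member had an unadjusted p under 0.05, the smallest being 0.104 for Nmnat3. The response of VCP TG minus that of WT was 0.67 ± 0.47 for Sirt3 (95% confidence interval -0.30 to 1.64, limma adjusted p = 0.872), 0.57 ± 0.34 for Nmnat3, 0.56 ± 0.44 for Nmnat1 and 0.51 ± 0.50 for Parp1. For Nmrk2, whose value was negative in both genotypes, it was -0.08 ± 0.48 (95% confidence interval -1.07 to 0.91). The median of all genes was 0.22 in this contrast, and -0.02 on values rescaled to nuclear protein-coding genes. The intervals leave room for differences of over 1 log2 unit, so neither a like nor an unlike response was shown.

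The effect of the transgene was asked first without load, in VCP TG sham against WT sham. None of the 9 genes passed by limma, where 0.0144% of 13901 genes did, and no member had an unadjusted p under 0.05, the smallest being 0.114 for Nmnat3. Nmnat3 held 3.58, 2.81, 2.19 and 1.25 TPM in VCP TG sham, against 3.65, 4.50, 3.97 and 3.67 TPM in WT sham. Every VCP TG library was below every WT library (-0.56 ± 0.35, limma adjusted p = 1.00), an order that 0.453% of genes tested had. Sirt3 (-0.59 ± 0.39) and Nmnat1 (-0.41 ± 0.39) overlapped, and without the libraries rich in atrial transcripts Nmnat1 stood at 0.05. The other 6 genes lay between -0.17 and 0.15, with standard errors of 0.37 to 0.40.

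In loaded hearts, VCP TG 2 weeks TAC against WT 2 weeks TAC, none of the 9 genes passed, where 0.0565% of 14162 genes did. Nmrk1 had the 1 unadjusted p under 0.05 among the 9 (0.0447). It held 4.01, 3.73 and 4.62 TPM in VCP TG 2 weeks TAC, against 3.55, 2.63, 3.50 and 2.71 TPM in WT 2 weeks TAC. All VCP TG libraries were above all WT libraries, an order that 19.4% of genes tested had, and the log2 fold change was 0.33 ± 0.14 (limma adjusted p = 0.201). The median of all genes was 0.15 in this comparison and -0.19 on rescaled values, so this order depends on the scaling. Rescaled to nuclear protein-coding genes, Nmrk1 was at 7.68, 9.72 and 10.8 in VCP TG 2 weeks TAC, against 10.3, 7.88, 10.9 and 7.97 in WT 2 weeks TAC, overlapping throughout (0.02, adjusted p = 0.953). Parp1 stood at 14.3, 11.2 and 18.2 TPM in VCP TG 2 weeks TAC, against 14.2, 12.6, 7.68 and 10.3 TPM in WT 2 weeks TAC (0.36 ± 0.22, adjusted p = 0.374), and its value on rescaled levels was -0.01. Nmrk2 averaged 11.5 ± 0.531 TPM in VCP TG 2 weeks TAC (n = 3) and 12.0 ± 2.97 TPM in WT 2 weeks TAC (n = 4), with an interval of -0.41 to 0.35. Rescaled, it was 21.8, 28.7 and 28.4 in VCP TG 2 weeks TAC, against 47.4, 29.9, 31.7 and 33.6 in WT 2 weeks TAC, every VCP TG library then below every WT library (-0.41, limma adjusted p = 0.209). The share of all genes with that order on rescaled values was not computed. On rescaled values 8 of the 9 genes were below 0, where 69.5% of all genes were. Without the libraries rich in atrial transcripts 6.58% of genes were called and still none of the 9. The mean receptor level was 0.311 to 0.842 TPM in VCP TG 2 weeks TAC and 0.107 to 0.200 TPM in WT 2 weeks TAC, and its part in these differences was not tested.

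At 5 weeks, VCP TG 5 weeks TAC against WT 5 weeks TAC, none of the 9 genes passed, where 0.00715% of 13986 genes, a single gene, did, and no member had an unadjusted p under 0.05. Parp1 held 17.0, 13.7 and 12.4 TPM in VCP TG 5 weeks TAC, against 9.93, 12.3, 10.7 and 11.4 TPM in WT 5 weeks TAC. On TPM the groups did not overlap, as for 3.40% of genes tested in that direction (0.34 ± 0.18, unadjusted p = 0.0835 and limma adjusted p = 0.904). Rescaled to nuclear protein-coding genes they did overlap, with Parp1 at 36.2 to 43.5 in VCP TG 5 weeks TAC and 28.7 to 40.7 in WT 5 weeks TAC. Nmrk2 held 23.6, 23.7 and 20.2 TPM in VCP TG 5 weeks TAC, against 18.3, 23.5, 16.6 and 13.0 TPM in WT 5 weeks TAC. The VCP TG levels ran from the upper part of the WT range to just above its highest value (0.34 ± 0.21, adjusted p = 0.904). Sirt1 (0.31 ± 0.18), Nmrk1 (0.33 ± 0.28) and Nampt (-0.22 ± 0.21) overlapped, and Sirt3 was nearly equal, at 10.1 ± 1.66 TPM in VCP TG 5 weeks TAC (n = 3) and 9.95 ± 2.04 TPM in WT 5 weeks TAC (n = 4), with an interval of -0.42 to 0.47. In this comparison 3 of the 7 libraries have Vcp against the label.

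Levels at 2 and 5 weeks come from separate tables without a 5-week sham group, so they are set side by side and not tested. Nmrk2 averaged 11.5 ± 0.531 TPM in VCP TG 2 weeks TAC and 22.5 ± 2.01 TPM in VCP TG 5 weeks TAC (n = 3 each), and 12.0 ± 2.97 TPM in WT 2 weeks TAC and 17.9 ± 4.38 TPM in WT 5 weeks TAC (n = 4 each). Nampt averaged 28.7 ± 1.75 TPM in VCP TG 2 weeks TAC and 17.9 ± 2.17 TPM in VCP TG 5 weeks TAC, and 34.1 ± 8.36 TPM in WT 2 weeks TAC and 21.4 ± 4.97 TPM in WT 5 weeks TAC. Sirt3 was 10.4 ± 1.93 TPM in VCP TG 2 weeks TAC and 10.1 ± 1.66 TPM in VCP TG 5 weeks TAC. In WT it was 9.73 ± 1.96 TPM at 2 weeks TAC and 9.95 ± 2.04 TPM at 5 weeks TAC, below all 4 WT sham libraries at both times.

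Ratios within a library do not depend on how that library's TPM was scaled, and are given as a description. The ratio of Nampt to Nmrk2 was 2.40, 2.56 and 2.54 in VCP TG 2 weeks TAC and 1.58, 4.47, 2.87 and 3.24 in WT 2 weeks TAC. It was 1.60, 1.81, 0.452 and 2.72 in VCP TG sham and 1.66, 1.63, 0.733 and 1.32 in WT sham. In 3 of 4 WT 2 weeks TAC libraries it lay above every WT sham library, the exception being replicate 1. At 5 weeks it was 0.766 to 0.822 in VCP TG 5 weeks TAC and 0.872 to 1.72 in WT 5 weeks TAC, so the groups did not overlap and Nmrk2 exceeded Nampt in 3 of 3 VCP TG and 2 of 4 WT libraries. It also did so in replicate 3 of VCP TG sham and of WT sham, and in no library of 2 weeks TAC. The ratio of Parp1 to Sirt3 was 1.23 to 1.60 in VCP TG 2 weeks TAC and 0.779 to 1.58 in WT 2 weeks TAC, against 0.658 to 1.70 in VCP TG sham and 0.570 to 0.867 in WT sham. Parp1 exceeded Sirt3 in 3 of the 4 WT 2 weeks TAC libraries and in 0 of the 4 WT sham libraries.

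**Figure D3:**
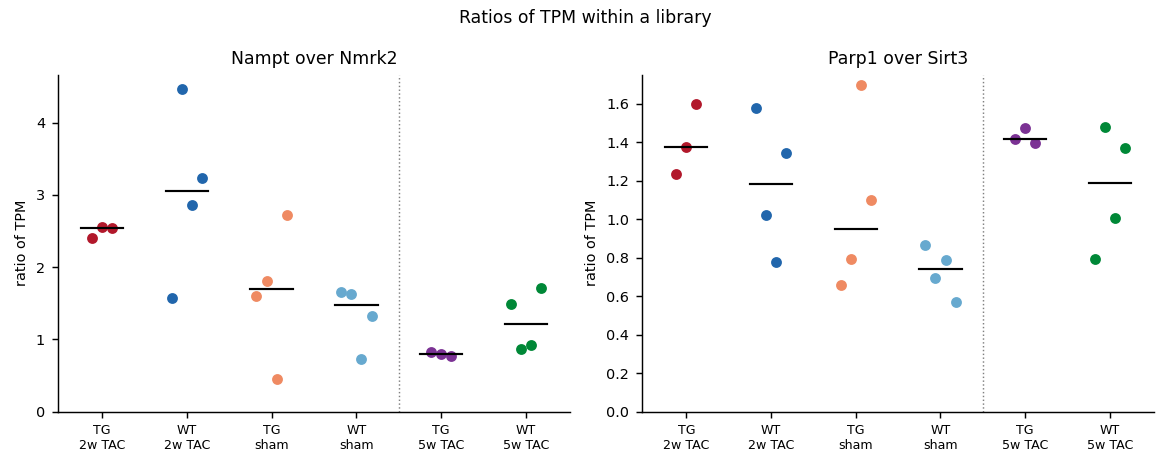
Ratio of TPM within each library (points) with group medians (lines), Nampt over Nmrk2 on the left and Parp1 over Sirt3 on the right. TG is VCP TG, 2w and 5w are weeks, and the dotted line parts the separate tables. WT sham has the lowest median ratio of Parp1 to Sirt3 of the 4 groups in its table (libraries from 0.570 to 0.867), and the 3 VCP TG 5 weeks TAC libraries have Nampt to Nmrk2 ratios under 1, as do 2 of the 4 WT 5 weeks TAC libraries and 1 library of each sham group.

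The wider NAD pathway was described with lists of named enzymes in WT 2 weeks TAC against WT sham. Calls are to be read against the 6.31% of all genes called lower. Lack of overlap is to be read against the 15.3% of all genes with every TAC library below every sham library. Of 16 other genes of NAD synthesis and phosphorylation 10 were tested and 1 fell. This was Naprt, the nicotinate phosphoribosyltransferase that opens the route from nicotinic acid. It held 2.63, 2.58, 2.75 and 3.04 TPM in WT 2 weeks TAC, against 5.72, 5.53, 4.95 and 3.50 TPM in WT sham, without overlap (-0.64 ± 0.17, limma adjusted p = 0.0469). The median over the 10 was -0.37 and 8 of 10 were below 0. None of the other 4 sirtuins passed (median -0.17), the largest value being -0.41 ± 0.22 for the nuclear Sirt7.

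Of 18 other NAD consumers 16 were tested and 1 fell, Parp4, the ADP-ribosyltransferase of the vault particle. Parp4 held 6.31, 5.38, 5.05 and 6.02 TPM in WT 2 weeks TAC, against 8.93, 9.24, 12.1 and 7.85 TPM in WT sham (-0.64 ± 0.17, limma adjusted p = 0.0432). The groups did not overlap, and the median over the 16 was -0.23. The calls of Naprt and Parp4 were lost without any of WT sham replicates 1, 2 and 3 or any of the 4 WT 2 weeks TAC replicates, with adjusted p up to 0.126 and 0.131. Over all 19 alternative fits Naprt passed in 5 and Parp4 in 6, with limma adjusted p up to 0.414 and 0.374. The 3 genes of nicotinamide disposal did not pass. Aox1, the aldehyde oxidase that clears methylated nicotinamide, was at -0.53 ± 0.18 and Aox3 at 0.67 ± 0.43.

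The 15 mitochondrial enzymes known as substrates of SIRT3 or SIRT5 had a median of -0.33, with 10 of 15 below 0 and none past the threshold. Acadvl, the very long-chain acyl-CoA dehydrogenase, was at -0.73 ± 0.20 (limma adjusted p = 0.0506). Acadvl held 78.8 to 122 TPM in WT 2 weeks TAC, against 144 to 224 TPM in WT sham. The groups did not overlap. Of 14 known regulators of the 9 genes 1 fell, Esrra, the nuclear receptor that drives genes of mitochondrial energy use and is a described activator of Sirt3 in mouse muscle cells. Esrra held 7.92, 10.1, 10.6 and 9.22 TPM in WT 2 weeks TAC, against 21.8, 22.9, 19.7 and 16.4 TPM in WT sham (-1.02 ± 0.16, limma adjusted p = 0.0136). The groups did not overlap, and this call was lost only in the fit of all 4 groups (adjusted p = 0.388).

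**Figure D4:**
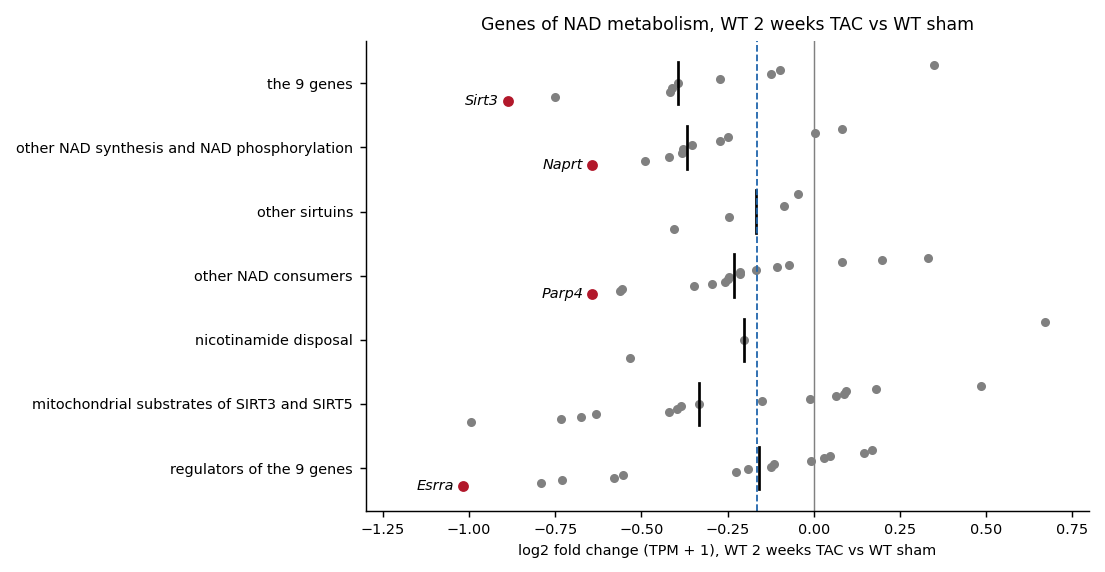
Log2 fold change on the TPM + 1 scale of each tested gene (points) in 7 lists, WT 2 weeks TAC against WT sham, with the list median (black line), the median of all genes tested (dashed line) and 0 (grey line). Red points with names passed the limma threshold: Sirt3 (-0.89), Naprt (-0.64), Parp4 (-0.64) and Esrra (-1.02).

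In the other comparisons no gene of these 6 lists passed. In VCP TG 2 weeks TAC against VCP TG sham the largest values were 0.97 ± 0.40 for Ppargc1a, the coactivator of mitochondrial biogenesis, 0.92 ± 0.36 for Kynu, the kynureninase of NAD synthesis from tryptophan, and 0.91 ± 0.38 for the ADP-ribosyl cyclase Bst1. In VCP TG 2 weeks TAC against WT 2 weeks TAC all 10 tested genes of NAD synthesis and phosphorylation were above 0, where 27.5% of all genes were below 0. When rescaled 6 of the 10 were above 0, where 69.5% of all genes were below 0. After quantile normalization 8 of the 10 were above 0, where 57.2% of all genes were below 0. Among these 10 Kynu came nearest to the threshold, without overlap between the groups (0.97 ± 0.19, limma adjusted p = 0.0542). All VCP TG libraries lay above all WT libraries for 3 of these 10 and for 19.4% of all genes tested. Ppargc1a was at 1.07 ± 0.34 there (adjusted p = 0.114). At 5 weeks Acadvl held 136, 134 and 139 TPM in VCP TG 5 weeks TAC. In WT 5 weeks TAC it held 121, 95.9, 109 and 105 TPM. The groups did not overlap, as for 3.40% of genes tested in that direction (0.34 ± 0.19, limma adjusted p = 0.904). In VCP TG sham against WT sham the largest value was -0.93 ± 0.44 for Esrra.

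Genes with the most similar pattern were ranked for 4 members by Pearson's r of log2 values over the 15 libraries of 2 weeks, among 7221 protein-coding genes with a mean of at least 5 TPM, after rescaling to nuclear protein-coding genes. These libraries share groups, background and mitochondrial load, so r is a description. Sirt3 was most like Cep68 (r = 0.963), Tpm1 (0.956), Ralgapa2 (0.944) and Cacna1c (0.937), with r between 0.393 and 0.650 in the 7 libraries of 5 weeks. Nampt was most like Atp5l (0.980), Ndufc1 (0.975), Mrpl21 (0.963) and Ccng1 (0.961), and these relations were 0.652 to 0.862 at 5 weeks. Nmrk2 was most like Rpl13a (0.939), Ccnl2 (0.935), Akap8 (0.926) and Srp68 (0.926), at 0.0362 to 0.258 at 5 weeks, and Parp1 reached at most 0.858, with Iffo1.

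Several of the 9 genes overlap neighbours or share sequence with other genes, which limits how their transcripts can be told apart. Sirt3 (ENSMUSG00000025486, chromosome 7, 140863666 to 140882309, minus strand, GRCm38) overlaps the proteasome subunit gene Psmd13 head to head by 342 bases and Ric8a by 707 bases, both on the other strand. The library kit keeps strand, but how strand was used in quantification is not stated. Psmd13 stood at 8.90 to 10.4 TPM in WT 2 weeks TAC and 10.3 to 23.5 TPM in WT sham (-0.52 ± 0.23, limma adjusted p = 0.181), and Ric8a was at -0.50 ± 0.21 (adjusted p = 0.164). The ratio of Sirt3 to Psmd13 was 0.737 to 1.37 in WT 2 weeks TAC and 0.711 to 1.78 in WT sham. Genes that start head to head with a member, Ostf1 beside Nmrk1 (0.13 ± 0.18), Lzic beside Nmnat1 (-0.00 ± 0.27) and Dnajc12 beside Sirt1 (-0.28 ± 0.19), did not pass in that comparison. Nmrk2 (chromosome 10, 81198170 to 81202051, minus strand) lies wholly within the antisense gene Atcayos, which has no values in the deposited tables, so its level is unknown. Nmnat3 (chromosome 9, 98287435 to 98420438, plus strand) holds the processed pseudogene Gm28530 on its own strand, at 1.24 to 7.47 TPM. Gdap10 overlaps Nampt and Mir6904 overlaps Parp1 on the same strand. Tmem274 overlaps Nmnat1 and Gm16145 overlaps Sirt1 on the other strand. Gdap10, Mir6904, Tmem274 and Gm16145 have no values in the deposited tables. Some of the 31-base words of each gene's annotated transcripts can occur in transcripts of other genes on either strand. The share that did was 0% for Nampt and Nmnat3, 3.25% for Sirt1, 3.41% for Parp1 and 8.02% for Nmrk1. It was 12.4% for Sirt3 and 14.9% for Nmnat1. The shares of Nmrk2 (23.7%) and Sirt5 (28.6%) were the largest of the 9.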

How the data were processed

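The authors deposited TPM values (transcripts per 1000000) per Ensembl gene, 1 column per library, each summing to 1000000, a unit read from the values. The submitters' processing notes name the build GRCm38, STAR 2.5.4b, kallisto 0.43.1, DESeq2 and Trimmomatic 0.35, without saying which made the values; the annotation release is not stated. TPM keeps no read depth, so no counting intervals can be given. Names and positions came from GENCODE M21 on GRCm38 and upstream sequences from RefSeq (GRCm38.p6).

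Each comparison was fitted with limma 3.58.1 in R 4.3.3 (variance trend, robust moderation) on log2(TPM + 1), using the 2 groups compared and genes that reached 1 TPM in 3 or more of their libraries. All 9 genes passed this filter in every comparison. Two-sided p-values were adjusted by Benjamini-Hochberg across every tested gene, with a call at 0.05. The interaction used the 4 groups of 2 weeks. The script was run on simulated data with known changes and the same spread in every group. That setting does not cover the unequal spread between groups seen here. Fold changes on this scale understate low genes. Alternatives were the pseudocount, filter, scaling, pooled spread, library weights, replicate block and leaving libraries out. Named genes were the 9 genes, at most 4 called genes per list (or 2 with the largest values where none passed) and overlapping or head-to-head neighbours within 1000 bases. No column was left unmapped and no library pair was identical (highest correlation 0.983). The 9 genes, the lists, the separate fits and the rules were chosen with earlier results of these data known.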

Additional observations from a re-analysis of the deposited data

How the results depend on the processing

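Of the 9 genes, the number called in WT 2 weeks TAC against WT sham was 1 in the reported fit, 0 with no filter on low values, 0 with the spread pooled over 4 groups, 2 on values rescaled to nuclear protein-coding genes and 2 with library weights, and it ranged from 0 to 2 when 1 library was left out. In VCP TG 2 weeks TAC against VCP TG sham it was 0, and 1 with library weights or without the libraries rich in atrial transcripts. The other 4 comparisons gave 0 under every alternative run. The cause of these changes was not tested. Over all genes, 964 were called in the WT comparison, against 156 with no filter, 1725 rescaled, 635 after quantile normalization, 2364 with weights, 0 with pooled spread and 49 to 2148 with 1 library left out. For VCP TG 2 weeks TAC against VCP TG sham it was 53, against 3 to 978, and for VCP TG 2 weeks TAC against WT 2 weeks TAC 8, against 0 to 1371. Rescaling moved the median of all genes in VCP TG 2 weeks TAC against VCP TG sham to -0.26, against 0.01, and quantile normalization moved it in the WT comparison to -0.00, against -0.16.

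Of 564 values of the 28 results that were called or at least 0.3 in size, 4 changed sign. Nmnat1 in VCP TG sham against WT sham was 0.047 without the libraries rich in atrial transcripts, and Parp1 in VCP TG 2 weeks TAC against WT 2 weeks TAC was -0.0095 when rescaled. The Sirt5 interaction was -0.036 without VCP TG sham replicate 4 (up to 0.56 with other libraries left out) and -0.11 without the libraries rich in atrial transcripts. Of 528 values of the 29 smaller results 92 changed sign and 0 passed the threshold.

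Correlations across genes between same-numbered libraries were 0.114, 0.271, 0.206 and 0.0746 for replicates 1 to 4 in VCP TG sham and WT sham, and -0.24 to 0.16 in the other comparisons. Not every pair was above 0.1 in any comparison, so the numbers were not taken as pairs. With the replicate block Sirt3 in WT 2 weeks TAC against WT sham had an adjusted p of 0.0322 by limma and 659 genes passed, against 964 without it. The calls of Naprt and Parp4 were lost with it (adjusted p = 0.0876 and 0.0818), and no call among the 9 genes changed. Read depth is unknown, so how few reads the lowest levels, near 1.22 TPM, rest on cannot be given.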
